A study of Mus musculus with 6 samples.

Results

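The genes described here encode the 7 cyclin dependent kinase (CDK) inhibitors of the Cip/Kip family (Cdkn1a, Cdkn1b and Cdkn1c) and of the Ink4 family (Cdkn2a, Cdkn2b, Cdkn2c and Cdkn2d), taken by name. Of these 7 genes, 6 matched a row among the 37991 gene rows of the count tables, and 4 of those 6 had counts. Cdkn2d matched no row by its Ensembl identifier and was not analysed here.

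The RNA sequenced was cytoplasmic and polyA selected, from C2C12, an established line of mouse myoblasts of strain C3H that leave the cell cycle and form myotubes when serum is lowered. The knockdown cells (shKap1) carried a lentiviral (LV) short hairpin, sh-Kap1, against Kap1 (Trim28, a chromatin corepressor), and the control cells (shCtrl) a lentiviral hairpin against luciferase, sh-Luc, so that all cells were transduced. Differentiating cells (MT) had spent 48 hours in 2% horse serum with a supplement of insulin, transferrin and selenium, and proliferating myoblasts (MB) were grown in 10% fetal calf serum. The libraries were 1 of MT shKap1, 1 of MT shCtrl, 2 of MB shKap1 and 2 of MB shCtrl. The design asks how knockdown changes the transcriptome at each stage, and the labels do not call the replicates separate cultures, so the spread that p-values measure here may be technical.

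Depth ran from 36247530 to 49839994 gene counts per library. Levels are given as CPM, the counts of a gene scaled to the total gene counts of its library. Trim28 stood at 122 CPM in MT shKap1 against 382 CPM in MT shCtrl, and at 152 and 101 CPM in MB shKap1 against 587 and 417 CPM in MB shCtrl. The summed level of 6 markers of differentiated muscle (Myog, Ckm, Acta1, Myh3, Tnnt3 and Mymk), none of them at 0 in any library, was 110 CPM in MT shKap1, 6284 CPM in MT shCtrl, 11.4 and 67.5 CPM in MB shKap1 and 10.8 and 116 CPM in MB shCtrl. The sum in MT shKap1 lay below that of replicate 2 of MB shCtrl and above those of the other MB libraries. Among single markers, Ckm (4.75 CPM against at most 2.79 CPM), Acta1 and Tnnt3 were higher in MT shKap1 than in every MB library. Mymk was about equal in MT shKap1 and replicate 2 of MB shCtrl (9.08 and 9.05 CPM). Myog and Myh3 were lower in MT shKap1 (30.2 and 14.1 CPM) than in replicate 2 of MB shCtrl (32.9 and 29.9 CPM). The 5 myoblast markers (Myod1, Myf5, Des, Pax7 and Cdh15) summed to 799 CPM in MT shKap1, 1740 CPM in MT shCtrl, 386 and 1011 CPM in MB shKap1, and 492 and 893 CPM in MB shCtrl. Most of that sum is Des, with 552 CPM in MT shKap1 and 1209 CPM in MT shCtrl. Among the 5 markers, only Myf5 was higher in MT shKap1 than in MT shCtrl, at 82.4 CPM against 34.8 CPM. Pax7, the weakest of them, had 1 count in 3 of the 4 MB libraries. A mark in the file names sets replicate 1 of MB shKap1 and MB shCtrl, together with MT shKap1 and MT shCtrl, apart from replicate 2, and its meaning was not stated in the labels. The replicates of MB differed along it, with differentiated muscle markers at 11.4 and 10.8 CPM in replicate 1 of MB shKap1 and MB shCtrl and at 67.5 and 116 CPM in replicate 2.

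CDK inhibitors slow or stop the cell cycle by binding the kinases that drive it. Ink4 proteins bind CDK4 and CDK6 and keep them from the D cyclins, while Cip/Kip proteins bind complexes of cyclin and CDK, above all those of CDK2, so that the retinoblastoma protein stays unphosphorylated and holds E2F factors in check. In skeletal muscle p21 and p57, the products of Cdkn1a and Cdkn1c, are known for acting redundantly in the cell cycle exit of differentiating myoblasts, and transcription of Cdkn1a during that exit is known to be raised by MyoD.

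The stretches of DNA in front of these genes are printed because the results turn on genes whose RNA differed in opposite directions between the MT libraries. These are Cdkn1a, with its annotated starts, and Cdkn1b, together with Cdkn2c as the counted gene with the smallest difference there. Each MT group is 1 library, and the Cdkn1b difference passed only in edgeR with a term for the file-name mark. Each printed stretch is the 250 bases before an annotated start in RefSeq (build GRCm38.p6), read 5′ to 3′ on the strand of the gene. There was a window for 6 of the 7 genes and none used here for Cdkn1c. Capitals mark matches to CANNTG, the E-box bound by myogenic bHLH factors, and to GGGCGG, the GC box bound by Sp factors, both searched on both strands, with no overlap between the matches shown.
Cdkn1a first start, chr17:29090729-29090978, plus strand: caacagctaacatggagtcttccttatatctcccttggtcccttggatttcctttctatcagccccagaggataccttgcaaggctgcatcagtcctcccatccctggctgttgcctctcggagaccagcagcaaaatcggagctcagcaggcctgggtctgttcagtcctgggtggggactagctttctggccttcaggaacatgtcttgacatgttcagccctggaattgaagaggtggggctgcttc
Cdkn1a second start, chr17:29093519-29093768, plus strand: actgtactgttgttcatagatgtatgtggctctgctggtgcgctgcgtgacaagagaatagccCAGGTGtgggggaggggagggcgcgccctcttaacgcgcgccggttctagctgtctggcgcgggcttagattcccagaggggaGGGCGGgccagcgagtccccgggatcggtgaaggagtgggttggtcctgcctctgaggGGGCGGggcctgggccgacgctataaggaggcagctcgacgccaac
Cdkn1b, chr6:134920151-134920400, plus strand: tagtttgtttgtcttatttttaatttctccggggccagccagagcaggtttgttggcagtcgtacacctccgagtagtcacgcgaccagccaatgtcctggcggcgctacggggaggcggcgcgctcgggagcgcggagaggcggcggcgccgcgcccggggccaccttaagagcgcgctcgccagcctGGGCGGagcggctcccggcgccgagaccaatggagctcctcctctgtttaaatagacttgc
Cdkn2c first start, chr4:109666757-109667006, minus strand: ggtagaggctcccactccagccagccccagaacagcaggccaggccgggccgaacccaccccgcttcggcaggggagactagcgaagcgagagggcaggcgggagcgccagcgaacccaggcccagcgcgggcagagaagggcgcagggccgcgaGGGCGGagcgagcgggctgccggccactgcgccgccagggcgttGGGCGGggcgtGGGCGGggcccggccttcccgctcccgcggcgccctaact
The window of the second Cdkn1a start held 1 E-box, 187 bases before the start, and GC boxes 104 and 46 bases before it, while neither motif was in the window of the first start. The Cdkn1b window held 1 GC box, 61 bases before the start, and no E-box, and the window of the first Cdkn2c start held 3 GC boxes, at 95, 51 and 40 bases, and no E-box. Cdkn2c has a second annotated start, not printed, whose window held neither motif. Among 32851 RefSeq windows of the same length, 66.2% held an E-box by these letters and 32.7% a GC box.

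Cdkn1a, which encodes p21, was the most abundant of the CDK inhibitor transcripts in every library. It stood at 370 CPM in MT shKap1, 1670 CPM in MT shCtrl, 271 and 138 CPM in MB shKap1, and 164 and 158 CPM in MB shCtrl. MT shCtrl was the highest library by a wide margin, MT shKap1 lay above all MB libraries, and the libraries of MB shKap1 lay on either side of those of MB shCtrl. A gene on the opposite strand, AC167363.2, overlaps Cdkn1a in the GENCODE M21 annotation, and since no source used here gives the strand setting of the counting, reads of the pair cannot be told apart.

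In MT, Cdkn1a was lower in shKap1 than in shCtrl by a log2 change of -2.31 (SE 0.51). It did not pass the edgeR quasi-likelihood test over all genes without a term for the file-name mark (adjusted p = 0.492), and it passed with that term (SE 0.388, adjusted p = 0.0394, 4.96-fold lower). Each MT group is 1 library, and both fits assume that it varies as the MB libraries do. The CPM ratio of the MT libraries was 0.222, with a 95% interval from counting error alone of 0.218 to 0.226. This ratio is scaled by total gene counts, while the log2 change is TMM-scaled. The markers of differentiated muscle moved with this difference, at 110 CPM in MT shKap1 against 6284 CPM in MT shCtrl, and their part in the result was not tested. In bulk RNA, fewer cells of a type and less RNA per cell cannot be told apart.

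In MB, Cdkn1a did not pass the test between shKap1, at 204 ± 94.2 CPM, and shCtrl, at 161 ± 3.58 CPM (SD, n = 2 each, edgeR adjusted p = 1 without the mark term and 0.751 with it). The pairs of equal replicate number went opposite ways, with a CPM ratio of shKap1 to shCtrl of 1.66 (1.61 to 1.71 by counting error) in replicate 1 and 0.869 (0.839 to 0.901) in replicate 2. The summed level of the smooth muscle markers Acta2, Tagln, Cnn1 and Myh11, none at 0 in any library, was also highest in replicate 1 of MB shKap1, with 5784 CPM there and 1930 CPM in replicate 2, against 2980 and 1293 CPM in replicates 1 and 2 of MB shCtrl. Most of that sum is Acta2, Myh11 had at most 10 counts in a library, and the part of these markers in the Cdkn1a levels was not tested.

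Between the stages, the log2 change of Cdkn1a in MT over MB was 0.77 in knockdown cells (SE 0.41, edgeR adjusted p = 0.432) and 0.58 with the mark term (SE 0.337, adjusted p = 0.288). MT shKap1 had 1.37 times the CPM of replicate 1 of MB shKap1, which shares its mark, and 2.69 times that of replicate 2. In control cells Cdkn1a was higher in MT than in MB by a log2 change of 3.39 (SE 0.41, edgeR adjusted p = 0.0629), and by 3.13 (SE 0.358, adjusted p = 0.00764) with the mark term. MT shCtrl had 10.2 times the CPM of replicate 1 of MB shCtrl and 10.5 times that of replicate 2. The difference of the knockdown effects, MT minus MB, was -2.55 on the log2 scale (SE 0.465) in the fit with the mark term and did not pass (edgeR adjusted p = 0.0713, and 0.948 without the term). DESeq2 gave an adjusted p of 0.00534 without the term and 0.0597 with it.

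Cdkn1c encodes p57, which is imprinted and expressed from the maternal allele. It showed the widest span of levels among the counted CDK inhibitors, with 6.70 CPM in MT shKap1, 91.5 CPM in MT shCtrl, 2.16 and 2.06 CPM in MB shKap1, and 1.12 and 2.16 CPM in MB shCtrl. MT shCtrl stood far above every other library, and MT shKap1 above all 4 MB libraries. The MB values rest on 101 and 90 counts in shKap1 and on 47 and 88 counts in shCtrl. Gm44732 overlaps Cdkn1c on the opposite strand in GENCODE M21, so its level is uncertain in the same way as that of Cdkn1a.

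In MT, Cdkn1c was lower in shKap1 than in shCtrl by a log2 change of -3.91 (SE 0.54, edgeR adjusted p = 0.457), and the same change had an SE of 0.277 and an adjusted p of 0.000160 with the mark term, 15.0-fold lower. The counting interval of the CPM ratio of the MT libraries, 0.0733 without TMM scaling, was 0.0641 to 0.0834. As for Cdkn1a, the differentiated muscle markers moved with it (110 CPM in MT shKap1, 6284 CPM in MT shCtrl), and their part was not tested. In MB the knockdown and control groups, at 2.11 ± 0.0735 and 1.64 ± 0.738 CPM (SD, n = 2 each), did not pass the test (edgeR adjusted p = 1, and 0.527 with the mark term). The ratio of shKap1 to shCtrl was 1.93 (1.35 to 2.79 by counting error) in the replicate 1 pair and 0.952 (0.702 to 1.29) in the replicate 2 pair.

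Cdkn1c was higher in MT than in MB in both kinds of cells, past the threshold with the mark term. In knockdown cells the log2 change was 1.57 (SE 0.41, edgeR adjusted p = 0.275) and 1.77 with the mark term (SE 0.279, adjusted p = 0.00377, 3.41-fold). MT shKap1 had 3.10 times the CPM of replicate 1 of MB shKap1 and 3.25 times that of replicate 2. In control cells the log2 change was 5.81 (SE 0.44, edgeR adjusted p = 0.0522) without the mark term and 6.05 (SE 0.280, adjusted p = 6.33e-06, 66.1-fold) with it. MT shCtrl had 81.7 times the CPM of replicate 1 of MB shCtrl (61.3 to 111 by counting error) and 42.3 times that of replicate 2 (34.2 to 52.8). The test of the difference between the knockdown effects, MT minus MB, gave -4.28 on the log2 scale with the mark term (SE 0.362, edgeR adjusted p = 0.000705) and -4.24 without it (SE 0.63, adjusted p = 0.927).

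**Figure D1:**
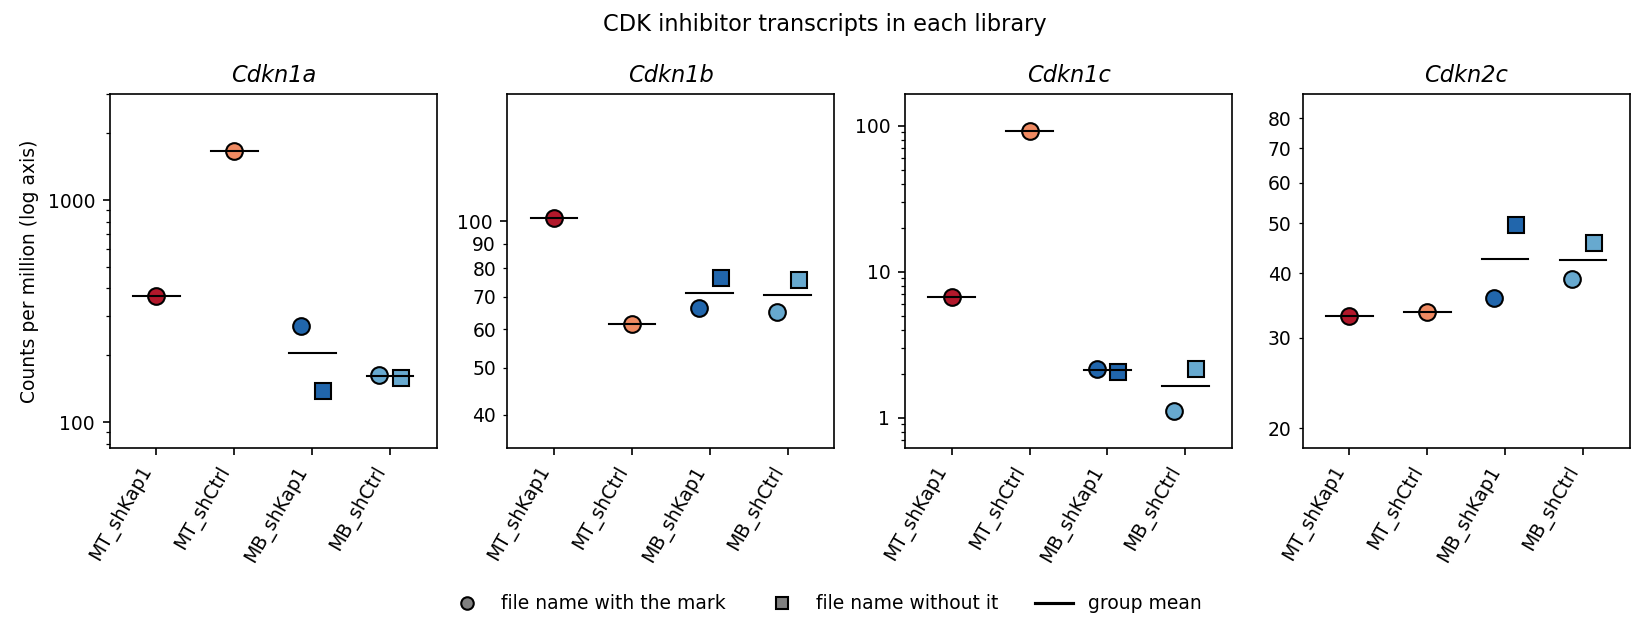
CPM (log axis) of the 4 counted CDK inhibitor genes in each of the 6 libraries, with circles for libraries whose file names carry the mark, squares for those without it, and lines for group means, which in MT are the value of 1 library. Cdkn1a and Cdkn1c peak in MT shCtrl (1670 and 91.5 CPM), Cdkn1b peaks in MT shKap1 (102 CPM), and Cdkn2c stays between 33.0 and 49.6 CPM.

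Cdkn1b, which encodes p27, a Cip/Kip inhibitor controlled largely through its destruction after phosphorylation, had its highest level in MT shKap1. Its levels were 102 CPM in MT shKap1, 61.5 CPM in MT shCtrl, 66.2 and 76.4 CPM in MB shKap1, and 64.9 and 75.8 CPM in MB shCtrl. MT shCtrl was the lowest library, and the MB groups overlapped in part, with replicate 2 above replicate 1 in each and shKap1 slightly above shCtrl in each replicate. In MT the log2 change of shKap1 over shCtrl was 0.59 (SE 0.24, edgeR adjusted p = 0.613), and with the mark term it had an SE of 0.130 and an adjusted p of 0.0107, 1.50-fold higher. This call was not made by DESeq2, with an adjusted p of 0.680 without the mark term and 0.0780 with it. The CPM ratio of the MT libraries, without the TMM scaling of the log2 change, was 1.65, with a counting interval of 1.57 to 1.73. The differentiated muscle markers (110 CPM in MT shKap1, 6284 CPM in MT shCtrl) and the smooth muscle markers Tagln (765 CPM against 280 CPM) and Cnn1 (57.1 CPM against 5.14 CPM) differed between the same libraries, and their part was not tested. All 4 smooth muscle markers summed to 5508 CPM in MT shKap1 and 5401 CPM in MT shCtrl. Most of that sum is Acta2, which was lower in MT shKap1 (4685 CPM) than in MT shCtrl (5116 CPM).

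Cdkn1b averaged 71.3 ± 7.23 CPM in MB shKap1 and 70.4 ± 7.69 CPM in MB shCtrl (SD, n = 2 each), and both pairs of equal replicate number had ratios near unity, 1.02 and 1.01. The log2 change was -0.01 in both fits (edgeR adjusted p = 1 without the mark term and 0.976 with it). In knockdown cells Cdkn1b was higher in MT than in MB by a log2 change of 0.42 (edgeR adjusted p = 0.403), and by 0.54 with the mark term (SE 0.120, adjusted p = 0.00689). In control cells the corresponding values were -0.18 (edgeR adjusted p = 0.619) and -0.06 with the mark term (adjusted p = 0.739). The difference of the knockdown effects, MT minus MB, was 0.60 (SE 0.159, edgeR adjusted p = 0.0398) with the mark term, against an adjusted p of 0.988 without it and of 0.245 in DESeq2 with the term.

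Cdkn2c, which encodes p18, an Ink4 inhibitor of CDK4 and CDK6, varied least in MT between the groups. It stood at 33.0 CPM in MT shKap1, 33.6 CPM in MT shCtrl, 35.8 and 49.6 CPM in MB shKap1, and 39.0 and 45.8 CPM in MB shCtrl. Both MT libraries lay below all 4 MB libraries, and replicate 2 of each MB group lay above replicate 1. The ratio of MT shKap1 to MT shCtrl was 0.982, with a counting interval of 0.911 to 1.06, and the log2 change after TMM scaling was -0.16 (edgeR adjusted p = 0.929 without the mark term and 0.477 with it). In MB the groups averaged 42.7 ± 9.73 CPM in shKap1 and 42.4 ± 4.81 CPM in shCtrl (SD, n = 2 each), with a log2 change of -0.02 (edgeR adjusted p = 1, and 0.914 with the mark term). No stage difference of Cdkn2c passed either, with log2 changes of MT over MB of -0.47 in knockdown cells (edgeR adjusted p = 0.484, and 0.175 with the mark term) and -0.32 in control cells (adjusted p = 0.522, and 0.465 with it).

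Cdkn2a, the source of p16 and, in another reading frame, of p19Arf, which acts on p53 through Mdm2, had 0 counts in all 6 libraries. Cdkn2b, which encodes p15 and lies next to it on chromosome 4, likewise had 0 counts in all 6. A count of 0 allows up to 3 counts, which is 0.0602 to 0.0828 CPM across the libraries, and that floor covers counting error only. Of 20214 rows annotated as protein-coding, 3203 (15.8%) also had 0 counts in every library. No fold change is given for either gene.

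**Figure D2:**
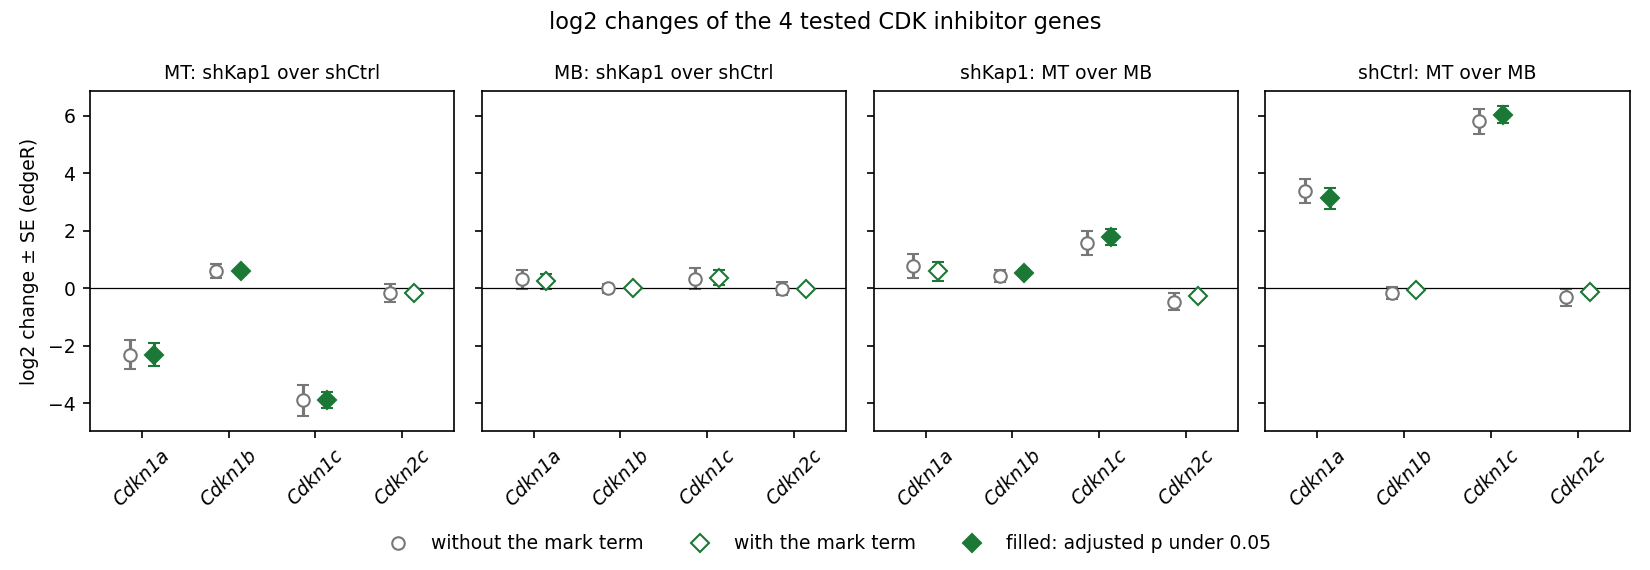
Log2 changes from edgeR, with an SE taken from the F statistic of the test, for the 4 tested CDK inhibitor genes in 4 comparisons. Grey circles show the fit without the file-name mark and green diamonds the fit with it, filled where the adjusted p is under 0.05. No grey circle is filled, while with the mark term the filled points are 3 genes for knockdown in MT (-2.31, 0.59 and -3.91), 2 for the stages in knockdown cells and 2 for the stages in control cells, and there are none for knockdown in MB.

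Counted over the family, all 4 genes with counts passed the low-count filter, each with at least 47 counts in every library, so that none entered through the group in which it was high. With the mark term, 3 of these 4 passed for knockdown in MT (Cdkn1b higher, Cdkn1a and Cdkn1c lower), where 20.3% of 16472 tested genes passed in either direction, 9.1% higher and 11.2% lower. For knockdown in MB, 0 of 4 passed, where 3.83% of all genes did, 2.5% higher and 1.34% lower. In knockdown cells 2 of 4 (Cdkn1b and Cdkn1c) were higher in MT than in MB, where 33.1% of all genes passed, 16.6% higher and 16.5% lower. In control cells 2 of 4 (Cdkn1a and Cdkn1c) were higher in MT, where 44.9% of all genes passed, 22.3% higher and 22.6% lower. The difference of the knockdown effects passed for 2 of 4 (Cdkn1b higher, Cdkn1c lower), where 10.5% of all genes did, 3.83% higher and 6.64% lower. The knockdown comparisons share their libraries with the stage comparisons, so these counts are not independent of each other.

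Without the mark term edgeR called 0 genes, CDK inhibitors included, in each of these comparisons. Genes at an unadjusted p under 0.05 numbered 1383 for knockdown in MT, 454 for knockdown in MB, 2511 for the stages in knockdown cells, 4174 for the stages in control cells and 825 for the difference of the knockdown effects. Cdkn1a and Cdkn1c had unadjusted p-values of 0.00904 and 0.00150 for knockdown in MT in that fit. DESeq2 without the term called 368, 52, 843, 2384 and 166 genes in the same order of comparisons, and its adjusted p for knockdown in MT was 0.000651 for Cdkn1a and 1.13e-09 for Cdkn1c.

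Set against gene length, as CPM per kilobase of annotated exon, the family was dominated by Cdkn1a. The level summed over the 4 counted genes was 142 CPM per kilobase in MT shKap1, 541 in MT shCtrl, 105 and 75.0 in MB shKap1, and 75.3 and 79.4 in MB shCtrl. MT shCtrl held the highest sum, and MT shKap1 exceeded all MB libraries. Cdkn1a made up 73.3% of the sum in MT shKap1, 86.9% in MT shCtrl, 72.5% and 51.7% in MB shKap1, and 61.1% and 56.2% in MB shCtrl. Cdkn1c, the smallest share in all libraries but MT shCtrl, was 2.31% of the sum in MT shKap1, 8.29% in MT shCtrl and 0.729% to 1.35% in MB. In MT shCtrl the order of length-scaled levels was Cdkn1a (470 CPM per kilobase), Cdkn1c (44.9), Cdkn1b (13.5) and Cdkn2c (12.5). In MT shKap1 it was Cdkn1a (104), Cdkn1b (22.3), Cdkn2c (12.3) and Cdkn1c (3.29). In MB, Cdkn1b and Cdkn2c changed places between libraries, with 14.5 and 16.8 CPM per kilobase for Cdkn1b and 13.3 and 18.4 for Cdkn2c in the MB shKap1 replicates, against 14.3 and 16.7 for Cdkn1b and 14.5 and 17.0 for Cdkn2c in those of MB shCtrl.

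**Figure D3:**
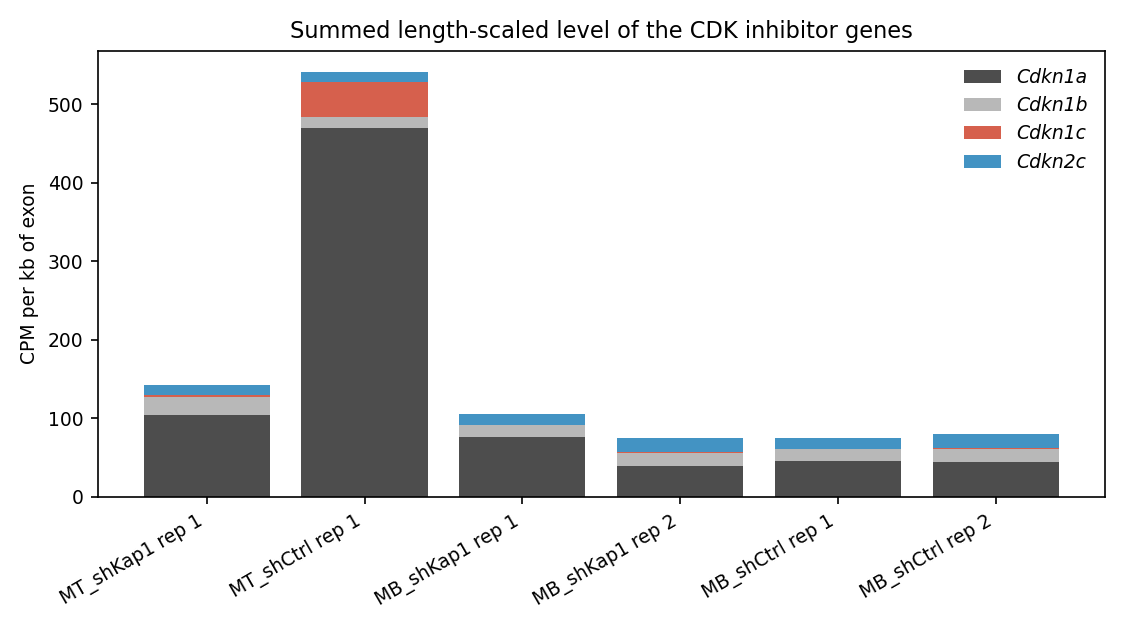
Stacked CPM per kilobase of exon of the 4 counted CDK inhibitor genes in each library, with 1 bar per library and 1 colour per gene. MT shCtrl reaches 541, of which 86.9% is Cdkn1a, while MT shKap1 reaches 142 and the 4 MB libraries lie between 75.0 and 105.

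The partners of the inhibitors, the cyclins and CDKs, went both ways on knockdown in MT: with the mark term, 3 of 12 tested genes were higher and 4 lower, with a list median of 0.16 on the log2 scale against 0.02 for all genes. Scaling by total library size in place of TMM moves the median of all genes to 0.155, and with it 6 were higher and 4 lower, with a list median of 0.29. Ccnd3, the D cyclin known for rising in myotubes, fell by 1.77 on the log2 scale (edgeR with the mark term, adjusted p = 0.000193), to 88.9 CPM in MT shKap1 against 276 CPM in MT shCtrl. Cdk2, the main kinase under Cip/Kip control, had a log2 change of -0.99 (adjusted p = 0.000606), and Ccne2, an E cyclin that activates it, one of -0.78 (adjusted p = 0.00554), both by edgeR with the mark term. Ccnb2, a mitotic cyclin, rose by 1.20 (adjusted p = 0.000273, same fit). For this list and those below, the shares over all tested genes on knockdown in MT were 9.1% higher and 11.2% lower (edgeR with the mark term). In MB, 0 of these 12 passed. Between the stages 8 of 12 were lower and 1 higher in MT shKap1 than in MB shKap1, and 9 were lower and 2 higher in MT shCtrl than in MB shCtrl. For this list and those below, 16.5% of all tested genes were lower and 16.6% higher in MT in knockdown cells. In control cells these shares were 22.6% and 22.3% (edgeR with the mark term).

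Among the pocket proteins and E2F factors, which act downstream of the inhibited kinases, 1 of 13 was higher and 5 were lower on knockdown in MT, with a median of -0.33, and 1 higher and 4 lower with total library size. Rb1, which encodes the retinoblastoma protein, stood at 56.4 CPM in MT shKap1 against 125 CPM in MT shCtrl (log2 change -1.29, edgeR with the mark term, adjusted p = 0.000114). E2f2 was at 6.76 CPM in MT shKap1 against 38.6 CPM in MT shCtrl (log2 change -2.65, adjusted p = 3.62e-06, same fit), but it also differed along the file-name mark, with 8.72 and 46.1 CPM in replicates 1 and 2 of MB shKap1 and 9.70 and 43.5 CPM in those of MB shCtrl. In MB, 0 of 13 passed.

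CDK inhibitors, when active, hold down genes of DNA replication and mitosis. In knockdown cells 20 of 20 such genes were lower in MT than in MB (19 with total library size), and 20 of 20 in control cells (edgeR with the mark term). The part of the inhibitors in this difference was not tested. For knockdown in MT, 6 of the 20 were higher and 4 lower, with a median of -0.07 against 0.02 for all genes, and 6 were higher and 3 lower with total library size. The higher ones named by rank were Cdc20 (1.17, adjusted p = 0.00250), an activator of the anaphase-promoting complex, and the lower ones Cdc6 (-0.75, adjusted p = 0.00406), Mcm2 (-0.68, adjusted p = 0.00640) and Rrm2 (-0.64, adjusted p = 0.0110), which act in replication licensing and nucleotide supply, all log2 changes by edgeR with the mark term. In MB, 1 of 20 passed, Cenpf, a kinetochore protein, at -0.61 (adjusted p = 0.0153, same fit).

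**Figure D4:**
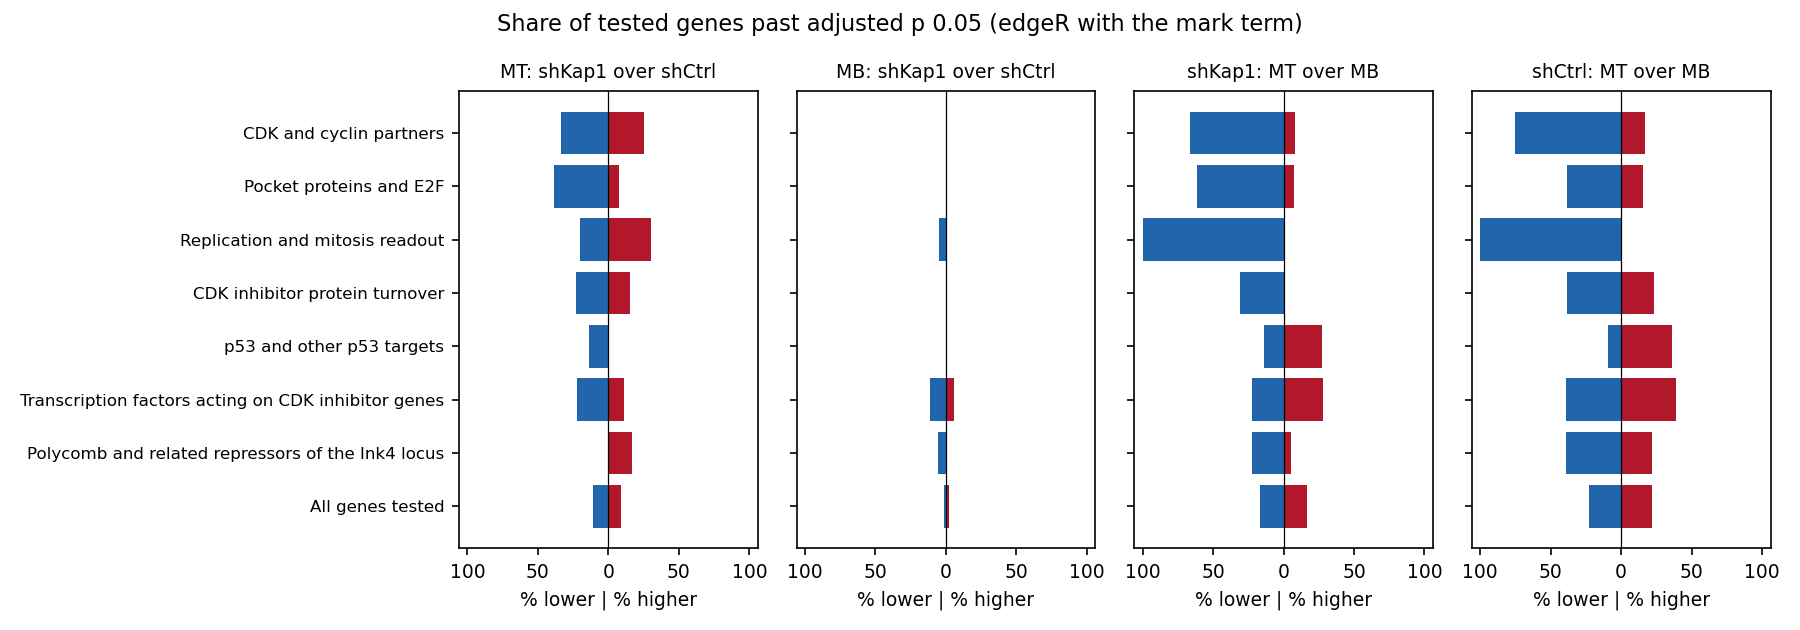
Share of tested genes past an adjusted p of 0.05 in edgeR with the mark term, for 7 lists of genes around the CDK inhibitors and for all 16472 genes tested, with the percentage lower to the left (blue) and higher to the right (red) in 4 comparisons. Replication and mitosis genes are lower in MT for 20 of 20 genes in both kinds of cells, and on knockdown in MT they are split, with 6 higher and 4 lower. The Polycomb list also holds Kdm6a and Kdm6b, which do not belong to the repressors.

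Of 13 tested genes for the turnover of CDK inhibitor proteins, 2 were higher and 3 lower on knockdown in MT (2 and 1 with total library size), and 0 passed in MB (edgeR with the mark term). Cks1b, the cofactor with which the Skp2 ligase recognises p27, was at 88.3 CPM in MT shKap1 and 45.1 CPM in MT shCtrl (log2 change 0.83, adjusted p = 0.00184, same fit), and Skp2 itself, at 35.5 CPM in MT shKap1 and 38.6 CPM in MT shCtrl, did not pass. Fbxw7, a ligase component that recognises cyclin E, had a log2 change of -0.71 (adjusted p = 0.0125, same fit). Rnf123, a ligase of p27, had one of -0.45 (edgeR adjusted p = 0.0410), which did not pass with total library size (adjusted p = 0.115). Skp2 and Cks1b were lower in MT than in MB, Skp2 by -1.23 in knockdown cells (adjusted p = 0.000111) and -1.28 in control cells (adjusted p = 2.81e-05), and Cks1b by -0.63 (adjusted p = 0.00381) and -1.53 (adjusted p = 8.68e-06), all log2 changes by edgeR with the mark term.

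Among p53 and its other targets, the group to which Cdkn1a also belongs, 0 of 22 were higher and 3 lower on knockdown in MT, against 4 higher and 2 lower with total library size, and 0 passed in MB under either. The 3 were Pmaip1, which encodes the apoptosis factor Noxa (-1.30, adjusted p = 0.00685), Aen, an apoptosis nuclease (-0.69, adjusted p = 0.00458), and Mdm4, a p53 inhibitor (-0.44, adjusted p = 0.0431, and 0.118 with total library size), all by edgeR with the mark term. The 4 that were higher under that scaling were Bax, Fas, Rrm2b and Sesn2. The list median was 0.21 against 0.02 for all genes, and 0.35 against 0.155 with total library size. Over all tested genes, 9.1% were higher and 11.2% lower on knockdown in MT, and 14.1% and 8.40% with total library size (edgeR with the mark term). Between the stages, 16.6% of all tested genes were higher in MT and 16.5% lower in knockdown cells (18.9% and 12.9% with total library size). In control cells 22.3% were higher and 22.6% lower (same fit). In MT over MB, 6 of 22 were higher and 3 lower in knockdown cells (8 and 1 with total library size), and 8 higher and 2 lower in control cells, while Trp53, the gene of p53 itself, was among the lower ones (-0.41 in knockdown cells, adjusted p = 0.0307 by edgeR with the mark term and 0.0652 with total library size, and -0.71 in control cells, adjusted p = 0.00122).

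Of 18 tested transcription factor genes known to act on CDK inhibitor genes, 2 were higher and 4 lower on knockdown in MT, and 2 higher and 2 lower with total library size, where Foxo3 and Klf4 did not pass. Myog, the myogenic factor of early differentiation, fell by 4.86 on the log2 scale (edgeR with the mark term, adjusted p = 4.30e-08), to 30.2 CPM in MT shKap1 against 795 CPM in MT shCtrl. Myod1, which encodes MyoD, stood at 27.5 CPM in MT shKap1 and 233 CPM in MT shCtrl, and at 3.49 and 20.4 CPM in MB shKap1 against 11.8 and 31.0 CPM in MB shCtrl, and it did not pass for knockdown in MT or in MB. Myc, known as a repressor of Cdkn1a, had a log2 change of -0.61 (edgeR with the mark term, adjusted p = 0.0102). In MB, Myog (-1.18, adjusted p = 0.00126), Klf4 (-0.43, adjusted p = 0.0485) and Smad3 (0.46, adjusted p = 0.0470) passed in that fit. With total library size Myog passed and Klf4 (adjusted p = 0.0770) and Smad3 (adjusted p = 0.0591) did not. Myog also differed along the file-name mark in MB, with 0.686 and 14.1 CPM in replicates 1 and 2 of shKap1. In those of shCtrl it stood at 1.26 and 32.9 CPM.

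Polycomb proteins repress the locus of Cdkn2a and Cdkn2b in many cell types. The list of 18 Polycomb and related genes also holds Kdm6a and Kdm6b, which do not belong to these repressors. Of the 18, 3 were higher and 0 lower on knockdown in MT (5 and 0 with total library size). Cbx2 was among the higher ones (log2 change 1.04, edgeR with the mark term, adjusted p = 0.000600). Over all tested genes, 9.1% were higher and 11.2% lower in that fit. In MB, 1 of 18 passed, Bmi1 (2 with total library size, with Cbx2 as the other). Bmi1 stood at 82.2 and 84.3 CPM in MB shKap1 against 130 and 138 CPM in MB shCtrl (log2 change -0.72, adjusted p = 0.00251, edgeR with the mark term). Cdkn2a and Cdkn2b had 0 counts in all of these libraries. Counts of RNA cannot tell a repressed locus from an absent one, and the cause of these 0 counts was not tested.

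The genes beside Cdkn2a and Cdkn2b on chromosome 4 were not all without reads. Gene order here is that of RefSeq, among genes with a row in the count tables. Mtap, a salvage enzyme of methionine metabolism, was the nearest such gene on the side of Cdkn2a. It had 146 CPM in MT shKap1 and 95.7 CPM in MT shCtrl. In MB it had 200.4 and 207 CPM in shKap1, and 233 and 240 CPM in shCtrl. Gm12602, a long noncoding RNA, ran from 2.73 to 10.1 CPM. On the side of Cdkn2b, Dmrta1 had 1 count in all libraries together, and Elavl2 ran from 0.435 to 1.60 CPM. Gm12610, annotated between Cdkn2a and Cdkn2b, had 0 counts throughout. Mtap was higher on knockdown in MT (log2 change 0.47, edgeR with the mark term, adjusted p = 0.0329) and lower in MT than in MB in knockdown cells (-0.54, adjusted p = 0.00833) and in control cells (-1.26, adjusted p = 3.29e-05, same fit).

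Around Cdkn1c on chromosome 7, a region of imprinted genes, the nearest annotated genes with a row in the count tables had few counts. Kcnq1ot1, of the same region, matched no row. Kcnq1, the neighbour on one side, had 2 counts in MT shKap1, 9 in MT shCtrl and 0 to 3 in the MB libraries, and Slc22a18, on the other, 0.119 to 0.607 CPM. Phlda2 had 0 or 1 count, while Tssc4 ran from 34.1 to 43.4 CPM and Nap1l4 from 140 to 165 CPM. Of 6 tested genes in a list of 11 from the wider imprinted region, 0 were higher and 2 lower on knockdown in MT (edgeR with the mark term). These were Tspan32 (-2.28, adjusted p = 0.00100), at 1.68 CPM in MT shKap1 against 7.44 CPM in MT shCtrl, and Osbpl5 (-0.51, adjusted p = 0.0232, and 0.0685 with total library size), at 67.3 CPM against 87.2 CPM in the same libraries. Tspan32 also differed along the file-name mark, with 1.14 and 4.95 CPM in replicates 1 and 2 of MB shKap1 and 0.644 and 4.13 CPM in those of MB shCtrl.

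**Figure D5:**
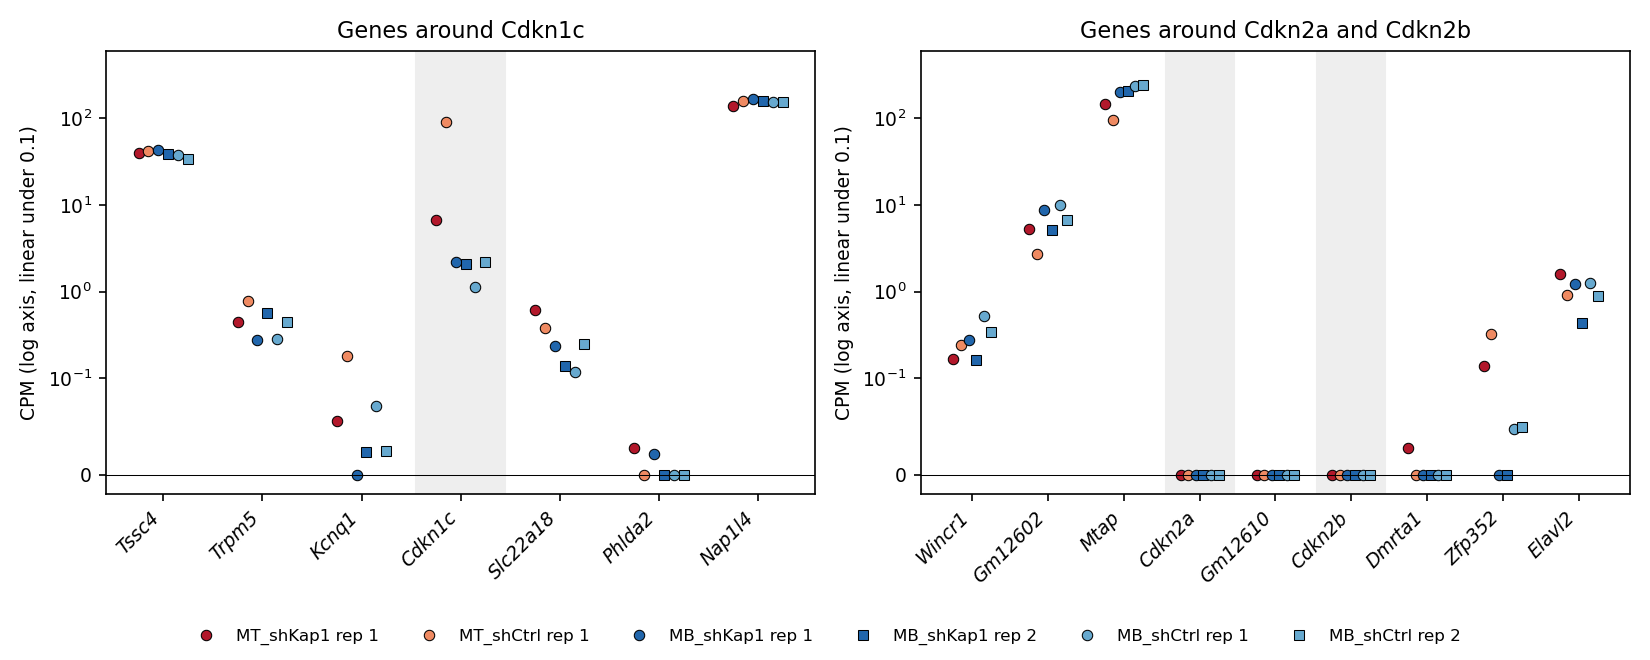
CPM (log axis, linear under 0.1) in each library for genes around Cdkn1c, and around Cdkn2a and Cdkn2b with the gene between them. Shown are the 3 nearest RefSeq genes on either side that have a row in the count tables. Grey bands lie over the CDK inhibitor genes. Cdkn1c reaches 91.5 CPM in MT shCtrl, while the nearest gene on either side is under 1 CPM, and Cdkn2a, Gm12610 and Cdkn2b lie at 0 in all 6 libraries beside Mtap at 95.7 to 240 CPM.

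Among themselves, Cdkn1a and Cdkn1c had the most alike profiles over the 6 libraries, with a Pearson r of 0.967 between log2 CPM values, and the other pairs of counted CDK inhibitors had an r between -0.620 and -0.0556. These are descriptions over 6 libraries of which 4 are replicates of MB, and MT shCtrl is the highest library for both genes. Over 12536 genes with a symbol and a mean of at least 1 CPM, the genes with the smallest Euclidean distance to Cdkn1a in centred log2 CPM were Hspb2 (distance 0.444, r = 0.993), Itga10 (0.638, r = 0.984) and Ctsc (0.639, r = 0.980). Hspb2, a small heat shock protein of muscle, stood at 10.4 CPM in MT shKap1, 37.4 CPM in MT shCtrl, 5.98 and 3.96 CPM in MB shKap1, and 4.96 and 4.38 CPM in MB shCtrl. For Cdkn1c they were Pgam2, the muscle phosphoglycerate mutase (0.440, r = 0.997), Tspan33 (0.858, r = 0.992) and Ip6k3 (0.873, r = 0.988). Pgam2 stood at 7.01 CPM in MT shKap1, 77.6 CPM in MT shCtrl, 1.95 and 2.47 CPM in MB shKap1, and 1.26 and 1.97 CPM in MB shCtrl. For Cdkn1b the nearest was Maf1, a repressor of RNA polymerase III (0.0828, r = 0.986), and for Cdkn2c it was Kpna6, an importin (0.0698, r = 0.993).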

How the data were processed

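Counts per Ensembl gene in 6 libraries were analysed as the authors deposited them. The tools were TopHat2 2.0.11, on mm9, and HTSeq, per the submitters' processing notes, while no source used here gives the annotation, counting mode or strand setting. Rows without a gene did not enter library sizes: reads in no gene made up 5.18% to 8.07% and ambiguous reads 2.81% to 2.93% of the sum of these and the gene counts. Symbols and exon lengths came from GENCODE M21, matched by identifier. Promoter windows and gene order came from RefSeq, with the order taken over protein-coding and long noncoding genes that have a row in the count tables.

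All 6 libraries entered 1 edgeR 4.0.16 quasi-likelihood fit (R 4.3.3, TMM factors 0.972 to 1.07, filterByExpr, robust) with a mean per group, and p-values were adjusted by Benjamini-Hochberg over 16472 genes. The same fit with a term for the file-name mark, which leaves 1 residual degree of freedom in place of 2, is printed beside it because it changes calls. DESeq2 1.42.0, other scalings (for the lists of genes, total library size), no low-count filter and leaving out single libraries were alternatives. Scaling by total library size moved the median log2 change of all genes for knockdown in MT to 0.155, against 0.018 with TMM. The SE beside an edgeR log2 change is the absolute log2 change divided by the square root of the F statistic of its test. Tests were tried on simulated counts. Intervals of CPM ratios are at the 95% level and, like floors of 3 counts, cover counting error only, since reads without molecular identifiers are not independent molecules.

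The CDK inhibitors and the 10 lists of related genes were chosen with earlier results of these data known. Genes of a list were named from the up to 4 with the smallest p in the fit with the mark term, and the genes alike by profile were the 3 nearest to each counted member. Others were named after their values were seen: Skp2, Foxo3, Myod1, Bax, Fas, Rrm2b and those given as counts of 5 or fewer. Besides the muscle lists, markers of haematopoietic (1.67 to 3.72 CPM summed), endothelial and epithelial (at most 0.482 CPM), adipocyte (at most 0.0458 CPM) and neuronal cells (0 CPM) were summed.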

Additional observations from a re-analysis of the deposited data

Results flagged for a closer look

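Cdkn1b was singled out because its knockdown effect in MT exceeded that in MB by 0.60 on the log2 scale in edgeR with the term for the file-name mark (SE 0.159, adjusted p = 0.0398). DESeq2 with that term did not make this call (adjusted p = 0.245), nor did edgeR without it (adjusted p = 0.988).

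Cdkn1c was singled out because its knockdown effect in MT minus that in MB was -4.28 on the log2 scale in the same fit (SE 0.362, adjusted p = 0.000705). DESeq2 gave adjusted p-values of 9.72e-07 without the term and 1.33e-17 with it, and edgeR without the term gave 0.927. For both genes each MT group is 1 library.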

How the results depend on the processing

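Over 20 log2 changes of CDK inhibitor genes and 236 alternative values, 186 kept direction and side of the threshold, 39 newly passed it, and 11 turned direction, all 11 in results that did not pass. For knockdown in MB these were Cdkn1b, at 0.0193 with total library size, 0.0199 with the block and total library size and 0.0014 without the low-count filter, and Cdkn2c, at 0.0100 with total library size. Leaving out 1 library at a time gave ranges for knockdown in MB of -0.23 (without MB shKap1 replicate 1) to 0.70 for Cdkn1a, -0.14 to 0.11 for Cdkn1b, -0.073 (without MB shCtrl replicate 1) to 0.89 for Cdkn1c and -0.29 to 0.21 for Cdkn2c, and of -0.38 to 0.13 for the difference of knockdown effects of Cdkn2c. The cause was not tested.

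The following counts are given for knockdown in MT, knockdown in MB, stages in knockdown cells, stages in control cells and the difference of knockdown effects. The replicate block, which is the term for the file-name mark, raised the genes called from 0 each to 3342, 631, 5446, 7397 and 1724, and the CDK inhibitors called to 3, 0, 2, 2 and 2. The block with total library size gave 3714, 510, 5243, 7386 and 1763 genes and 3, 0, 2, 2 and 2 CDK inhibitors. DESeq2 gave 368, 52, 843, 2384 and 166 genes and 2, 0, 1, 2 and 2 CDK inhibitors, and DESeq2 with the block, chosen after seeing the data, 1542, 329, 2918, 4291 and 958 genes and 2, 0, 2, 2 and 1. Only for the stages, DESeq2 size factors in edgeR gave 78 genes and 1 CDK inhibitor in control cells, and no low-count filter gave 582 genes and 2 CDK inhibitors in control cells and 2 genes in knockdown cells. Leaving out single libraries gave 0 to 141 genes and 0 to 2 CDK inhibitors for the stages in control cells, and 0 in the other comparisons. With the block, total library size in place of TMM moved the share of calls that were higher for knockdown in MT to 62.7% against 44.9%, in the stages of knockdown cells to 59.5% against 50.2%, and in the difference of knockdown effects to 52.1% against 36.6%, with the same number of CDK inhibitors called each way. The labels do not establish a pairing of equal replicate numbers. Across 16472 genes, replicate 2 minus replicate 1 of MB shKap1 correlated with that of MB shCtrl (r = 0.762, rho = 0.681 over genes, which are not independent replicates), which is a hint from the data. Cdkn1c levels in MB rest on 47 to 101 counts, and differences there under the counting intervals given were not detectable at this depth.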

Other observations

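Genes with Cdkn in their names that encode no CDK inhibitor of these families went as follows. Cdkn3, a phosphatase that acts on CDKs and is expressed in dividing cells, stood at 12.7 CPM in MT shKap1, 6.14 CPM in MT shCtrl, 9.58 and 10.5 CPM in MB shKap1, and 11.9 and 15.4 CPM in MB shCtrl. It was higher on knockdown in MT (log2 change 0.91, edgeR with the mark term, adjusted p = 0.0120) and lower in MT than in MB in control cells (-0.99, adjusted p = 0.00222, same fit). Cdkn2aip, whose product binds the Arf protein, was at 26.1 CPM in MT shKap1 and 15.9 CPM in MT shCtrl (log2 change 0.58, adjusted p = 0.0298, same fit). Of the 3 such genes tested, 2 were higher and 0 lower on knockdown in MT, and 0 passed in MB.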
